A study of Homo sapiens with 24 samples.

Results

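The genes described here make, take up, move and sense cholesterol. They were followed on 24 microarrays of human embryonic stem cells, lines grown from early embryos that can form every cell type of the body. The list holds 31 genes, chosen by name, and each was measured by the probe sets of the array that the platform annotation assigns to that gene alone. This gave 68 of the 41097 probe sets that name a single gene, and 29 of the 31 genes had at least 1. FDFT1 and CYP51A1 had none of their own and are not analysed here. Each gene is given below by its probe set with the highest mean over the 24 arrays, and a tested probe set with a difference of the opposite sign is named beside each call it touches.

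The study asked whether mouse embryonic fibroblasts used as feeder cells, or factors they secrete, change the metabolism of pluripotent cells, and what a block of lactate transport does. The groups of the inhibitor part were feeder-supported and feeder-free cultures of the lines H1, H9 and HSF1 (here a cell line, not a gene), each given 250 nM AZD3965 or DMSO for 5 days, with 1 array for each line in each of the 4 groups. AZD3965 inhibits MCT1, a carrier of lactate across the cell membrane, and DMSO is its solvent control. The groups of the medium part were feeder-free H9 and feeder-free HSF1 cells in medium conditioned by mouse embryonic fibroblasts or in unconditioned medium, with 3 biological replicates in each of the 4 groups. The labels give 5 days for the conditioned medium and the design text gives 24 hours, so its duration is uncertain. No genetic change is labelled in any line. Whether feeder cells were removed before RNA was isolated is not given in the sources used here, so RNA on the feeder-supported arrays may come from both species.

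Cholesterol is built in the endoplasmic reticulum and cytosol from acetyl-CoA through mevalonate, isoprenoids, squalene and lanosterol. When sterols run low, SCAP carries the membrane-bound transcription factor SREBF2 to the Golgi, where it is cut and released to switch on the enzymes of synthesis and the genes of uptake. When sterols are plentiful, INSIG1 and INSIG2 hold SCAP back in the endoplasmic reticulum, and oxysterols activate the nuclear receptors LXR, which switch on efflux genes such as ABCA1 and ABCG1 and the ubiquitin ligase MYLIP, which removes lipoprotein receptors. Growing cells need cholesterol for new membranes, and pluripotent stem cells make it themselves when medium holds little lipid.

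The 3 markers of pluripotency NANOG, SOX2 and LIN28A had group means between 11.68 and 13.42 on the log2 scale in all 8 groups. All 13 pluripotency markers with a probe set lay above the array median on all arrays, and array medians ran from 6.09 to 6.35. The summed linear signal of 33 fibroblast markers was 40089 to 66158 in feeder-supported cultures with AZD3965 and 35784 to 60355 with DMSO, against 17600 to 25135 in feeder-free cultures with AZD3965 and 13551 to 27968 with DMSO. That of the 13 pluripotency markers was 44817 to 69825 and 55215 to 72503 on feeders, with AZD3965 and with DMSO, against 79740 to 85905 and 81443 to 83616 without feeders. Both HSF1 arrays on feeders stood apart: their correlations with the remaining 22 arrays were 0.860 to 0.961, while those 22 correlated among themselves at 0.948 to 0.998. Log2 values are RMA values, in which a difference of 1 is a doubling, and a gene is said to have passed when its limma p, adjusted over all genes tested, was below 0.05. Of the 33 fibroblast markers, 12 passed as higher on feeders and 4 as lower with AZD3965, and 16 and 0 with DMSO. Of all genes, 19.3% were higher and 27.8% lower with AZD3965, and 15.2% and 24.1% with DMSO. The higher sums on feeders therefore do not hold for every marker.

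**Figure D1:**
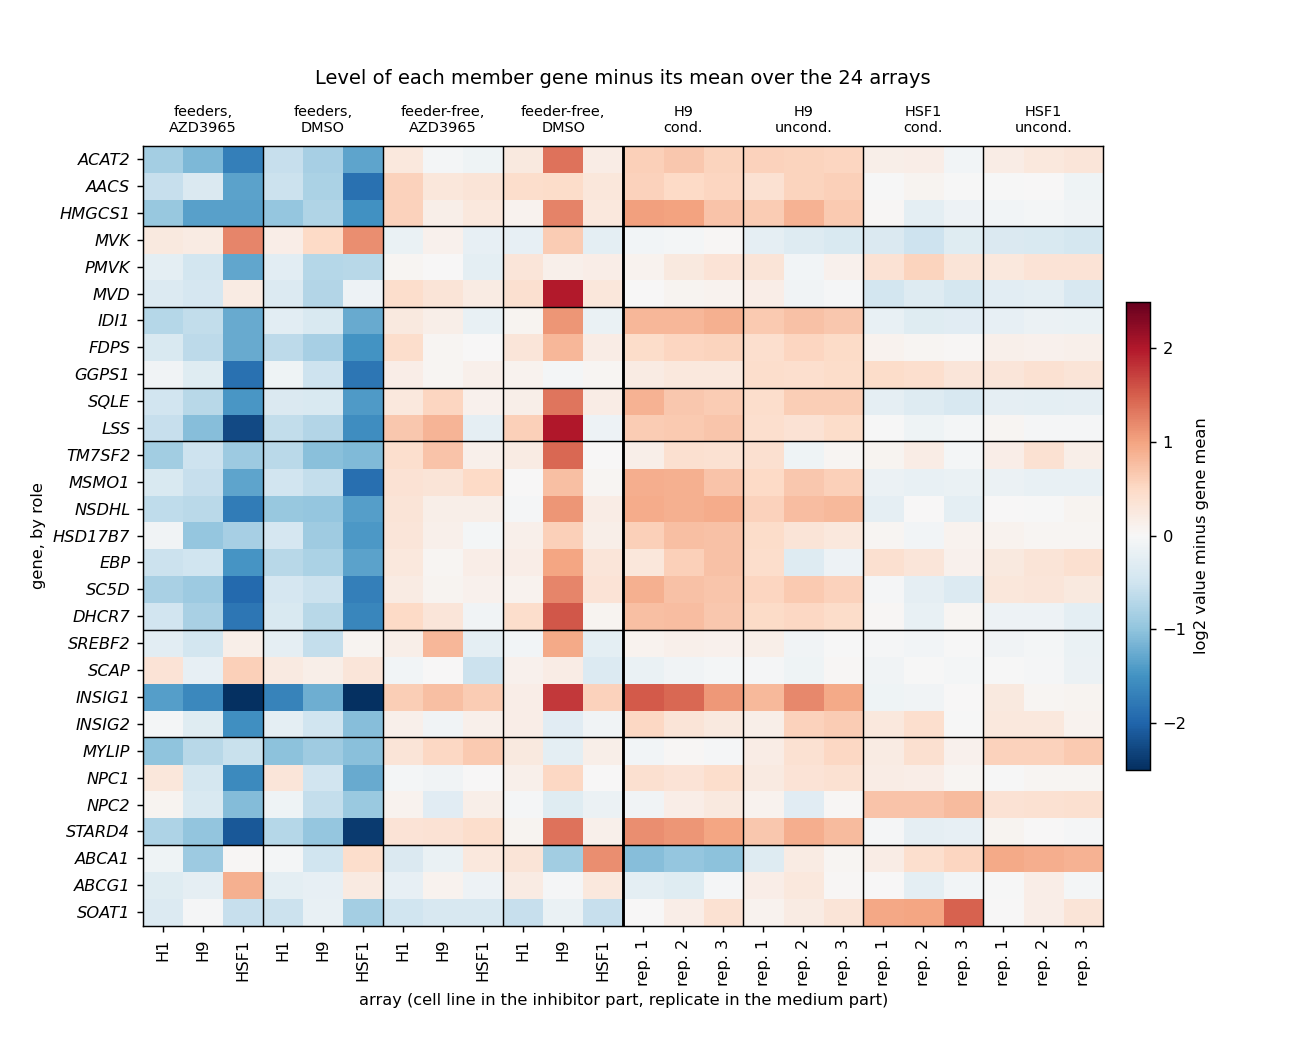
Heat map of the 29 measured genes (rows, by role from synthesis at the top to efflux and storage at the bottom) on the 24 arrays (columns, 3 per group). Colour is the log2 value minus the mean of that gene over all arrays. The 6 feeder-supported arrays at the left are low for most synthesis genes, and the feeder-free H9 array with DMSO is the highest of the 6 feeder-free arrays of the inhibitor part for 21 of 29 genes.

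Genes of cholesterol synthesis were lower in feeder-supported than in feeder-free cultures, with AZD3965 and with DMSO. With AZD3965, 18 of the 29 genes passed as lower and 0 as higher, where 27.8% of all 17218 genes tested were lower and 19.3% higher. With DMSO, 19 of 29 were lower and 0 higher, where 24.1% of all genes were lower and 15.2% higher. The median difference of the 29 genes was -0.94 with AZD3965 and -1.26 with DMSO, beside -0.20 and -0.19 for all genes. The 18 genes that were lower with AZD3965 were also lower with DMSO, and MVD was the additional gene with DMSO. The share of all genes lower in both is not given here. The 2 comparisons used different arrays of the same 3 lines and shared 1 estimate of the spread. In these bulk cultures, fewer human cells and less RNA per cell cannot be told apart.

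Of 18 synthesis enzymes, 15 passed as lower with AZD3965 and 16 with DMSO. Of the 11 genes of sensing, uptake, transport, efflux and storage, 3 passed in each case, near the share of all genes, and these were INSIG1, MYLIP and STARD4. The median difference of the enzymes was -1.15 with AZD3965 and -1.43 with DMSO, beside -0.45 and -0.46 for the other 11, and no test set the 2 sets of genes against each other. Groups did not overlap, with every feeder-supported array below every feeder-free one, for 19 of 29 genes with AZD3965 (32.1% of all genes) and for 20 of 29 with DMSO (30.6% of all genes).

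**Figure D2:**
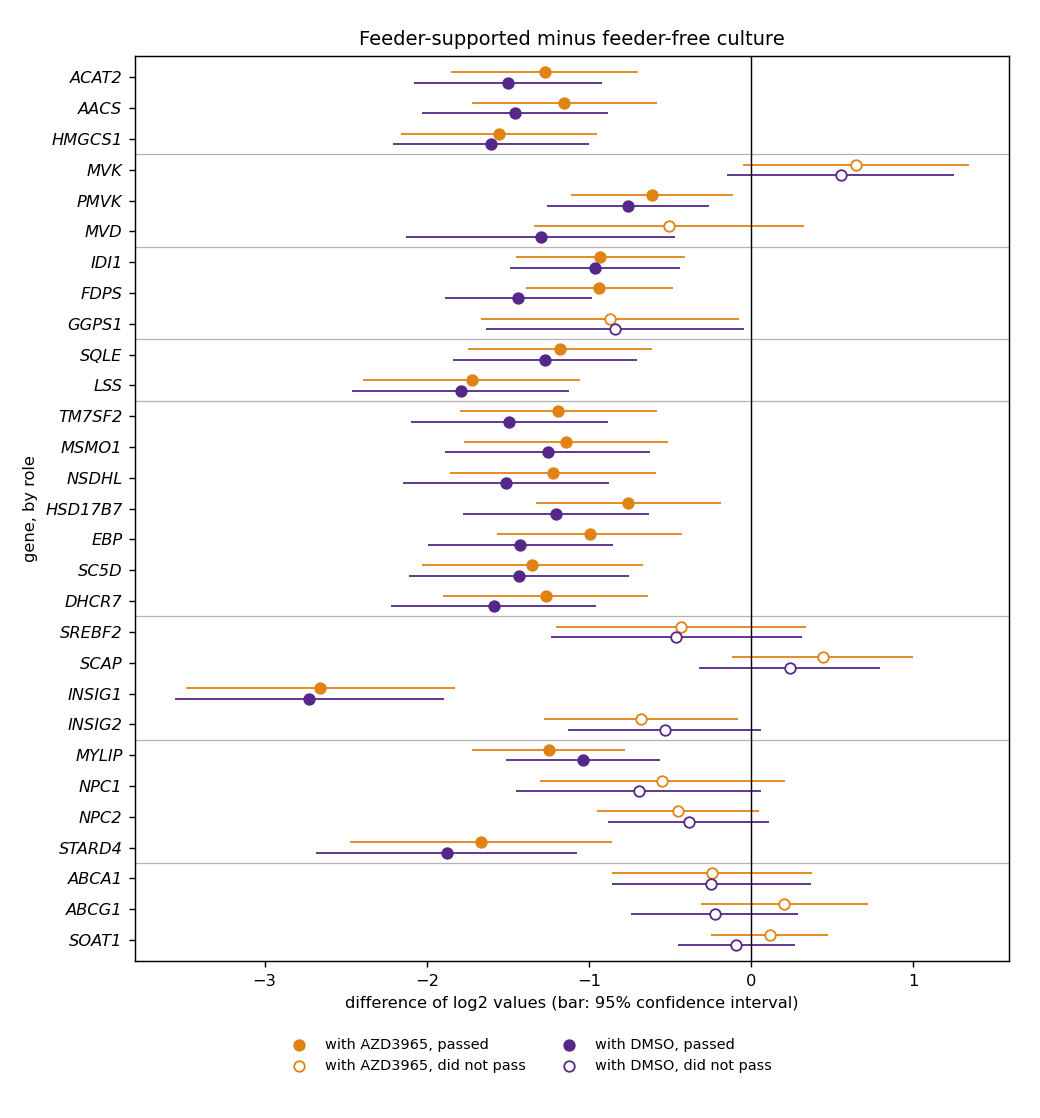
Difference between feeder-supported and feeder-free culture (x axis, log2 units) for each of the 29 genes (y axis, by role), with AZD3965 in orange and with DMSO in purple. Bars are 95% confidence intervals of the limma fit, filled points passed an adjusted p of 0.05 and open points did not. INSIG1 lies farthest to the left at -2.66 and -2.72, and MVK is the gene farthest to the right.

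INSIG1, the sterol-sensing anchor of SCAP and itself a gene that SREBF2 switches on, showed the largest fall. Its log2 values were 8.39, 8.16 and 6.74 in feeder-supported H1, H9 and HSF1 cells with AZD3965 and 8.10, 8.55 and 6.97 with DMSO, against 10.37, 10.51 and 10.39 in feeder-free cells with AZD3965 and 9.93, 11.53 and 10.33 with DMSO. All 6 feeder-supported arrays lay below all 6 feeder-free arrays, and HSF1 was the lowest line on feeders. The difference was -2.66 (SE 0.38, adjusted p = 0.00139, 6.31-fold lower) with AZD3965 and -2.72 (SE 0.38, adjusted p = 0.00144, 6.61-fold lower) with DMSO, in 3 of 3 lines each. Its rank from the lowest difference was 9 with AZD3965 and 7 with DMSO among the 17218 genes. The other 2 probe sets of INSIG1 were lower too, at -1.497 and -2.26 with AZD3965 and at -1.78 and -2.29 with DMSO.

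Promoters of these genes are shown because most of the genes were low on the same arrays. RefSeq windows of 250 bases before to 50 bases after a transcription start (GRCh38.p14) were at hand for 26 of the 29 genes, 35 windows in all. Capitals mark CCAAT or its reverse complement ATTGG, the box bound by NF-Y, a common partner of sterol-regulated transcription, and TCACNCCAC, a sterol regulatory element core. INSIG1, HMGCS1 and STARD4 stand for the genes that were low on feeders, MVK for an enzyme that was not, SREBF2 for the regulator and ABCA1 for efflux.
INSIG1 promoter, chr7:155297628-155297927, plus strand: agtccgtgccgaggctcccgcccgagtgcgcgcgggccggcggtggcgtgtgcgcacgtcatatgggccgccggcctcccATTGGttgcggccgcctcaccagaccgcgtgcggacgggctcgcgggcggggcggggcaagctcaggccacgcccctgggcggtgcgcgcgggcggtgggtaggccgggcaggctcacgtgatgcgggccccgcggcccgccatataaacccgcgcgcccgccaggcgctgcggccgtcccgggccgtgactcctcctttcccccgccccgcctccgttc
HMGCS1 promoter, chr5:43313363-43313662, minus strand: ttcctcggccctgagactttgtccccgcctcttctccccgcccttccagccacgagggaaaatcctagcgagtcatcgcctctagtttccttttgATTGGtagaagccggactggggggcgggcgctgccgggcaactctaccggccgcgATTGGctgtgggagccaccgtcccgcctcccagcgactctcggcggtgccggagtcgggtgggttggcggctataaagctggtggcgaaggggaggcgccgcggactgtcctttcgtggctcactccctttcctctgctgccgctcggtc
STARD4 promoter, chr5:111512486-111512785, minus strand: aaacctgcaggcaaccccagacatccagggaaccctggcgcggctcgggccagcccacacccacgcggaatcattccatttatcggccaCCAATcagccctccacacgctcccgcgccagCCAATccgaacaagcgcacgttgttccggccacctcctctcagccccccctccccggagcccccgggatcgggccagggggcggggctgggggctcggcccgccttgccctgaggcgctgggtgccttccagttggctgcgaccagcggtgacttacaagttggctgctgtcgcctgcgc
MVK promoter, chr12:109573544-109573843, plus strand: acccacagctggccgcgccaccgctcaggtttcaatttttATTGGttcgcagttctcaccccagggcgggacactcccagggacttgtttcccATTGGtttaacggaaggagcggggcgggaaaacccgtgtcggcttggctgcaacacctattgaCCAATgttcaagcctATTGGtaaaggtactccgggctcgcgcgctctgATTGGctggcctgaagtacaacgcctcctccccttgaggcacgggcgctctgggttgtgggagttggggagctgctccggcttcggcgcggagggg
SREBF2 promoter, chr22:41832855-41833154, plus strand: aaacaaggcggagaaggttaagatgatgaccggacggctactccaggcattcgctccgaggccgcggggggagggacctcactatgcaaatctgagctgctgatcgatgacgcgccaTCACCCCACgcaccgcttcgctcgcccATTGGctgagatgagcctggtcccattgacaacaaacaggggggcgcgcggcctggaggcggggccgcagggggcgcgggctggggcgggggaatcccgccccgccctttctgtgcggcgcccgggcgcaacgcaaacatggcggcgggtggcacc
ABCA1 promoter, chr9:104928106-104928405, minus strand: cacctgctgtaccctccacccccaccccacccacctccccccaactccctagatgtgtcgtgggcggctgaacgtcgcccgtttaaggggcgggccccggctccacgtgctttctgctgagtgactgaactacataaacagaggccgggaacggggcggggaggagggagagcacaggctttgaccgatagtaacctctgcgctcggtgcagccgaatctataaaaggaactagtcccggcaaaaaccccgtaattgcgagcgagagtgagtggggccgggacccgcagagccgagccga

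A CCAAT box on either strand was present in 22 of the 35 windows (62.9%), against 34.6% of all 35116 windows. By gene, 20 of 26 had it in at least 1 window, against 39.7% of 27305 genes. Among the genes lower with DMSO, 15 of the 17 with a window had it, and AACS and PMVK did not. Of the other members with a window, 5 of 9 had it. MVK, which did not fall by its listed set, had 5 copies in its window. NSDHL, which passed as lower, had as many, and INSIG1 had 1, HMGCS1 2 and STARD4 2. The sterol element core was found in the SREBF2 window alone among the members and in 1.13% of all windows. The GC box GGGCGG was in 91.4% of the member windows and 45% of all windows. The DR4 motif of LXR was in 0 of the 35 windows and in 0.0199% of all. CACGTG, an E-box, was in 17.1% of the member windows and 7.26% of all, INSIG1 and ABCA1 among them. These are exact matches of letters on either strand in a fixed window, and binding was not measured. Elements with other letters or outside the window are missed, so the lack of a match does not show that a gene lacks the element.

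The enzymes that make HMG-CoA, 3 of 3, passed as lower in both comparisons. ACAT2, the cytosolic thiolase that joins 2 acetyl-CoA units, was at 10.50, 10.24 and 9.65 in feeder-supported H1, H9 and HSF1 cells with AZD3965 and at 10.78, 10.54 and 10.04 with DMSO, against 11.63, 11.32 and 11.26 in feeder-free cells with AZD3965 and 11.60, 12.72 and 11.54 with DMSO. The groups did not overlap, and the difference was -1.27 (SE 0.26, adjusted p = 0.00727) with AZD3965 and -1.50 (SE 0.26, adjusted p = 0.00479) with DMSO. AACS, which activates acetoacetate for lipid synthesis, differed by -1.15 with AZD3965 and by -1.46 with DMSO (adjusted p = 0.00972 and 0.00501).

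HMGCS1, the cytosolic HMG-CoA synthase, had 10.36, 9.94 and 9.95 on feeders with AZD3965 and 10.34, 10.56 and 9.79 with DMSO, against 11.89, 11.46 and 11.56 without feeders with AZD3965 and 11.39, 12.54 and 11.57 with DMSO. Again no feeder-supported value reached a feeder-free one. The difference was -1.55 (SE 0.28, adjusted p = 0.00387) with AZD3965 and -1.61 (SE 0.28, adjusted p = 0.0043) with DMSO. Its second probe set gave -2.17 and -2.44.

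The mevalonate steps were mixed. MVK, which phosphorylates mevalonate first, was at 9.34, 9.30 and 10.31 on feeders with AZD3965 and 9.27, 9.60 and 10.25 with DMSO, against 8.93, 9.20 and 8.89 without feeders with AZD3965 and 8.88, 9.73 and 8.85 with DMSO. It was highest in both feeder-supported HSF1 arrays, with no overlap between the AZD3965 groups (23.9% of all genes were higher without overlap there, and 21.7% with DMSO), and its differences of 0.65 and 0.55 did not pass (adjusted p = 0.105 with AZD3965 and 0.163 with DMSO). Another of its 4 probe sets, at a mean of 6.27, was lower on feeders by 0.72 and 0.75 and passed, so the sets disagree in sign. PMVK, the next kinase, was lower by 0.61 with AZD3965 and 0.76 with DMSO (adjusted p = 0.0458 and 0.0266).

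MVD, the decarboxylase that ends this branch, had 7.10, 7.01 and 7.64 on feeders with AZD3965 and 7.09, 6.70 and 7.30 with DMSO, against 7.88, 7.76 and 7.63 without feeders with AZD3965 and 7.84, 9.41 and 7.72 with DMSO. The feeder-free H9 array with DMSO stood far above the other 11 arrays. The difference with DMSO was -1.30 (SE 0.38, adjusted p = 0.0245), and with AZD3965 it was -0.51 (SE 0.38, adjusted p = 0.262) with HSF1 showing no fall. Without that H9 array MVD no longer passed with DMSO (-0.66, adjusted p = 0.0563).

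Of the isoprenoid enzymes, FDPS, which makes farnesyl diphosphate, fell on feeders by 0.94 with AZD3965 and by 1.44 with DMSO (adjusted p = 0.0089 and 0.00173). IDI1, the isomerase before it, fell by 0.93 and 0.97 (adjusted p = 0.0142 and 0.015), and 1 of its 4 probe sets stood at 0.20 and 0.16 without passing. IDI1 and HSD17B7 were read from probe sets that the platform marks as open to cross-hybridisation with related sequences. GGPS1, which diverts isoprenoids to protein prenylation, had 9.54, 9.33 and 7.76 on feeders with AZD3965 and 9.52, 9.12 and 7.83 with DMSO, against 9.58 to 9.80 on the 6 feeder-free arrays. The low feeder-supported values were those of HSF1, and the differences of -0.87 and -0.84 did not pass (adjusted p = 0.065 and 0.0781).

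LSS, which closes squalene epoxide into lanosterol, had the largest fall of any synthesis enzyme by its listed probe set. It was at 10.15, 9.66 and 8.48 on feeders with AZD3965 and 10.11, 9.99 and 9.16 with DMSO, against 11.39, 11.57 and 10.50 without feeders with AZD3965 and 11.31, 12.72 and 10.60 with DMSO. Groups did not overlap and HSF1 was the lowest line in each of the 4 conditions. The difference was -1.72 (SE 0.31, adjusted p = 0.00379) with AZD3965 and -1.79 (SE 0.31, adjusted p = 0.00412) with DMSO. SQLE, the squalene epoxidase and a slow step of the pathway, was lower (-1.18 and -1.27, adjusted p = 0.0088 and 0.00775).

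All 7 measured enzymes from lanosterol to cholesterol passed as lower in both comparisons. With AZD3965 their differences ran from -1.35 to -0.76 and with DMSO from -1.59 to -1.20. DHCR7, the reductase of the last step of one branch, had 9.24, 8.92 and 7.92 on feeders with AZD3965 and 9.35, 9.04 and 8.10 with DMSO, against 10.22, 10.03 and 9.64 without feeders with AZD3965 and 10.17, 11.29 and 9.80 with DMSO. The groups did not overlap, and HSF1 was lowest in each condition. Its difference was -1.27 (SE 0.29, adjusted p = 0.00994) with AZD3965 and -1.59 (SE 0.29, adjusted p = 0.00529) with DMSO.

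The others were TM7SF2, a sterol reductase (-1.19 with AZD3965 and -1.49 with DMSO), MSMO1, a methylsterol oxidase (-1.14 and -1.26), NSDHL, which removes a carboxyl group (-1.22 and -1.51), HSD17B7, a ketone reductase (-0.76 and -1.20), EBP, a sterol isomerase (-0.997 and -1.42), and SC5D, a sterol desaturase (-1.35 and -1.43). Each was lower in 3 of 3 lines in both comparisons.

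The sensors other than INSIG1 did not pass. SREBF2 was at 8.53, 8.35 and 8.95 on feeders with AZD3965 and 8.56, 8.20 and 8.87 with DMSO, against 8.95, 9.63 and 8.55 without feeders with AZD3965 and 8.73, 9.74 and 8.55 with DMSO. The H9 arrays without feeders were the high ones, and HSF1 was higher on feeders, so groups overlapped. The 95% confidence interval of the difference was -1.21 to 0.34 with AZD3965 and -1.23 to 0.31 with DMSO, so the lower ends lay near the median difference of the enzymes with AZD3965 (-1.15) and above that with DMSO (-1.43). A second SREBF2 probe set passed as lower by 0.70 and 0.79, and the remaining one stood at 0.38 and 0.37 without passing. SCAP, the escort, was at 0.44 and 0.24 (adjusted p = 0.156 and 0.436). INSIG2, the second anchor, was at -0.68 and -0.53 (adjusted p = 0.0578 and 0.12).

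Among genes of uptake and transport, STARD4, a carrier of free sterol between membranes, had 9.07, 8.86 and 7.73 on feeders with AZD3965 and 9.13, 8.87 and 7.46 with DMSO, against 10.19, 10.20 and 10.27 without feeders with AZD3965 and 9.92, 11.21 and 9.97 with DMSO. No values overlapped, and HSF1 was again lowest on feeders. The difference was -1.67 (SE 0.37, adjusted p = 0.00891) with AZD3965 and -1.88 (SE 0.37, adjusted p = 0.00682) with DMSO. NPC1 and NPC2, which together release cholesterol from lysosomes, did not pass. NPC1 was at 10.04, 9.31 and 8.16 on feeders with AZD3965 and 10.06, 9.29 and 8.51 with DMSO, against 9.67 to 9.77 without feeders with AZD3965 and 9.76 to 10.28 with DMSO. HSF1 on feeders lay more than 1 unit below all feeder-free values, while H1 on feeders did not lie below them.

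MYLIP, the LXR-driven ligase, lies at chr6:16129086-16163887 (GRCh38.p14). It was at 8.42, 8.75 and 8.88 on feeders with AZD3965 and 8.40, 8.55 and 8.39 with DMSO, against 9.75, 9.95 and 10.08 without feeders with AZD3965 and 9.68, 9.19 and 9.59 with DMSO. Groups did not overlap, and the feeder-free H9 array with DMSO was the lowest of its group. The difference was -1.25 (SE 0.22, adjusted p = 0.00343) with AZD3965 and -1.04 (SE 0.22, adjusted p = 0.00851) with DMSO. Of its 6 probe sets, 5 passed as lower in both comparisons, and the other stood at 0.15 and 0.25 without passing. The largest falls, -2.38 and -2.53, came from a set at 4.70 to 5.18 on feeders with AZD3965 and 4.70 to 5.23 with DMSO. These values lie around the filter of 5 and under the array medians, where background limits a value. No fold is read from that set.

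The efflux and storage genes did not pass by their listed probe sets. ABCA1, the exporter of cholesterol to lipid-poor apolipoproteins, differed by -0.24 with AZD3965 and -0.25 with DMSO (adjusted p = 0.467 and 0.466), with values of 7.20 to 8.14 and 7.60 to 8.54 on feeders against 7.74 to 8.38 and 7.24 to 9.28 without. Of its 4 probe sets 3 were tested, and one at a mean of 7.09 passed as lower by 0.82 and 0.88. Testing needed a log2 value above 5 on at least 3 of the 12 arrays. Another set, at a mean of 4.80, lay at or under 4.80 on all feeder-free arrays and up to 5.94 on feeders, so it met the filter of 5 through the feeder-supported arrays alone and its difference is not read as a test. SOAT1, which esterifies cholesterol for storage, stood at 0.11 and -0.09 (adjusted p = 0.559 and 0.645).

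ABCG1, the exporter to mature lipoproteins, also differed by probe set. The listed set stood at 0.20 and -0.23 and did not pass. A second set, with a mean of 5.42 over all arrays, was at 4.02, 3.89 and 3.88 on feeders with AZD3965 and 3.68, 3.59 and 4.33 with DMSO, against 5.45, 6.20 and 5.79 without feeders with AZD3965 and 6.71, 5.55 and 6.73 with DMSO. All feeder-supported values lay below all feeder-free values. The feeder-supported values are under the filter of 5 and under the array medians, where background limits a value. This set met the filter through the feeder-free arrays alone, so the values are a description and no test or fold is read from them. Without the sets that had every value of one side at or under the filter, 39 of 61 member probe sets passed as lower and 0 as higher with AZD3965, and 40 of 60 and 0 with DMSO, beside 26.9% and 19.3%, and 24% and 15%, of all 33411 probe sets tested.

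The size of the shift differed between lines. With AZD3965 the median over the 29 genes was -0.78 in H1, -0.75 in H9 and -1.56 in HSF1, with 9, 11 and 21 genes at least 2-fold lower, where 5.3%, 4.87% and 33.3% of all genes were. With DMSO it was -0.54 in H1, -1.49 in H9 and -1.43 in HSF1, with 4, 18 and 19 genes at least 2-fold lower, where 3.12%, 7.51% and 30.1% of all genes were. Each line has 1 array a condition, so these differences between lines were not tested.

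Several measurements bear on how firm these calls are. Leaving out H9 reduced the 19 genes lower with DMSO to 2, HMGCS1 and INSIG1, and leaving out H1 reduced the 18 lower with AZD3965 to 7. Leaving out the feeder-supported HSF1 arrays gave 19 with AZD3965 and 21 with DMSO, and leaving out the feeder-free H9 array with DMSO, an alternative chosen after seeing the data, gave 17 in each. Without that array IDI1 missed the threshold with DMSO (adjusted p = 0.0512) and PMVK with AZD3965 (adjusted p = 0.059). The ACTB 3-prime minus 5-prime difference, a sign of RNA degradation, was -0.31 to 1.19 on feeders with AZD3965 and -0.15 to 0.80 with DMSO, against 0.47 to 1.17 and 0.65 to 1.00 without feeders. With it as a covariate 2 genes passed with AZD3965 (INSIG1 and MYLIP) and 3 with DMSO (these and FDPS), while the median of the members was -0.69 and -0.80, beside -0.09 and -0.06 for all genes. After quantile normalization 13 and 14 genes passed as lower and 0 as higher, the median of all genes moved to 0.03 and 0.04, and the members lay 0.61 and 0.90 below it. Of all genes called with DMSO, 50.6% were higher after quantile normalization and 38.7% as deposited. Shares of all genes passing in these alternative fits are not given, so a loss of member calls cannot be told from a general loss. The part of mouse RNA, of cell number and of RNA quality in the differences was not tested.

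Other genes of the same steps, taken from lists, gave mixed counts, and those named are among the smallest p of each list. Of 13 further synthesis genes 3 were lower and 2 higher with AZD3965, and 6 and 1 with DMSO, beside 27.8% lower and 19.3% higher, and 24.1% and 15.2%, of all genes. ERG28, a scaffold of the sterol demethylation enzymes, was lower (-1.16 with AZD3965 and -1.51 with DMSO), as was PDSS2, which makes the tail of coenzyme Q (-1.33 and -1.35), and FAXDC2, a sterol-oxidase-like gene, was higher by 1.54 and 1.51. Of 12 genes of SREBP processing and sterol-regulated degradation, 6 were lower with AZD3965 and 4 with DMSO, among them SREBF1 (-0.73 and -0.95), the sister factor of SREBF2, and RNF145 (-1.01 and -1.18), a ubiquitin ligase. Of 14 genes of lipoprotein uptake and sterol transport, 6 and 4 were lower, the second near the share of all genes. LIPA, the lysosomal acid lipase that frees cholesterol from lipoproteins, was lower (-1.48 and -1.74), as was TMEM97, a sterol-regulated membrane protein (-1.29 and -1.59). Of 13 genes of LXR, oxysterols and efflux, 3 were higher and 3 lower with AZD3965 and 4 and 4 with DMSO, with APOE (-0.86 and -0.73) and NR1H3 (-0.85 and -0.83), an LXR gene, lower in both. The AZD3965 counts of this list and of the further synthesis genes were near the shares of all genes.

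AZD3965 itself changed no member gene beyond the threshold. By limma 0 of 29 passed for the mean effect over both culture systems, where 0.639% of all genes did, 0 on feeders (0.00581%), 0 without feeders (0.842%) and 0 for the difference between culture systems (0.0174%). At an unadjusted p under 0.05 the numbers were 2, 0, 0 and 0, beside 8.1%, 1.66%, 7.74% and 2.07% of all genes. The 2 were ACAT2 at -0.44 (SE 0.19, adjusted p = 0.566) and MYLIP at 0.34 (SE 0.15, adjusted p = 0.608). MYLIP was higher with AZD3965 in 6 of 6 pairs of arrays and ACAT2 lower in 5 of 6. Fitted with each pair of AZD3965 and DMSO arrays of a line and culture system as a block, 3 genes passed for the mean effect, ACAT2 (adjusted p = 0.0389), SC5D (-0.38, adjusted p = 0.0466) and MYLIP (adjusted p = 0.0277), and MYLIP passed without feeders (0.44, adjusted p = 0.0427).

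**Figure D3:**
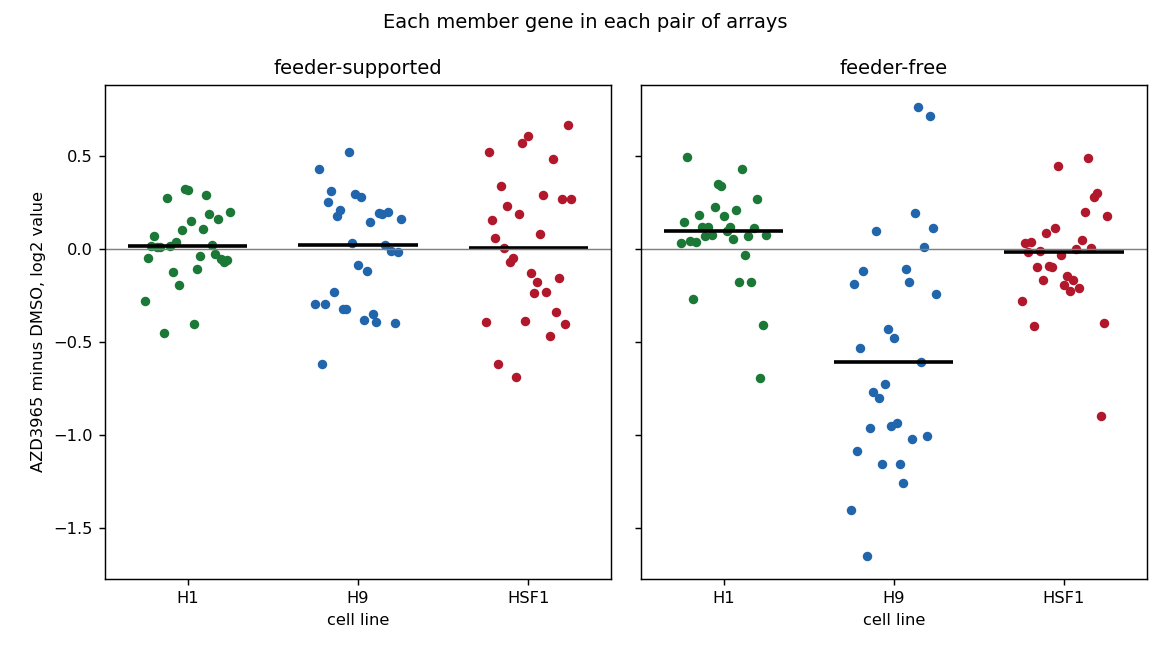
Difference between the AZD3965 and the DMSO array of the same line and culture system (y axis, log2 units) for each of the 29 genes (points), by line (x axis), on feeders at the left and without feeders at the right. Black lines are medians. The feeder-free H9 pair has a median of -0.61, and the other 5 medians lie between -0.01 and 0.09.

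The lines differed most without feeders. In the feeder-free H9 pair 23 of 29 genes were lower with AZD3965, 8 of them at least 2-fold, where 49.2% of all genes were lower and 0.923% at least 2-fold. In that pair 17 of 18 synthesis enzymes were lower, from MVD (-1.65), ACAT2 (-1.40), DHCR7 (-1.26), SC5D (-1.16) and LSS (-1.15) to AACS (-0.19) and PMVK (-0.12), while MYLIP (0.77) and ABCA1 (0.72) were higher. In the feeder-free H1 pair 1 of the 18 enzymes was lower and the median of the 29 genes was 0.09, and in the HSF1 pair 13 of 18 were lower with a median of -0.01. The DMSO array of that pair held the highest of the 6 feeder-free values for 21 of 29 genes, where it did so for 25% of all genes. The H9 array with AZD3965 was highest for 0 of 29. With 1 array a condition, the array and the inhibitor cannot be told apart in that pair. On feeders the medians of the 3 pairs were 0.02, 0.02 and 0.00, and 0 genes were 2-fold lower.

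Conditioned medium gave a smaller and line-dependent pattern. In H9 cells 8 of 29 genes passed as higher than in unconditioned medium, where 3.45% of 16572 genes did, and 4 as lower, where 13% did. The 8 were the enzymes MVK, LSS, MSMO1, HSD17B7, EBP and DHCR7, with INSIG1 and STARD4. The 4 were GGPS1, MYLIP, ABCA1 and ABCG1. The median was 0.16 for the 29 genes and -0.03 for all genes, and 1 of the 18 synthesis enzymes had a difference below 0, where 54.8% of all genes did. The media did not overlap for 10 genes that were higher (9.74% of all genes) and 4 that were lower (19.4%). In HSF1 cells 2 passed as higher, NPC2 and SOAT1, where 8.57% of all genes did, and 3 as lower, SC5D, MYLIP and ABCA1, where 9.78% did. Both HSF1 counts were near those shares. In HSF1 the median was -0.05 for the 29 genes and 0.03 for all genes, and 13 of 18 enzymes were below 0, where 43.6% of all genes were. The media did not overlap for 3 genes that were higher (22.3% of all genes) and 7 that were lower (20.5%). Genes lower in both lines were ABCA1 and MYLIP, and 0 were higher in both. The share of all genes passing in both lines is not given, so these counts are a description.

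**Figure D4:**
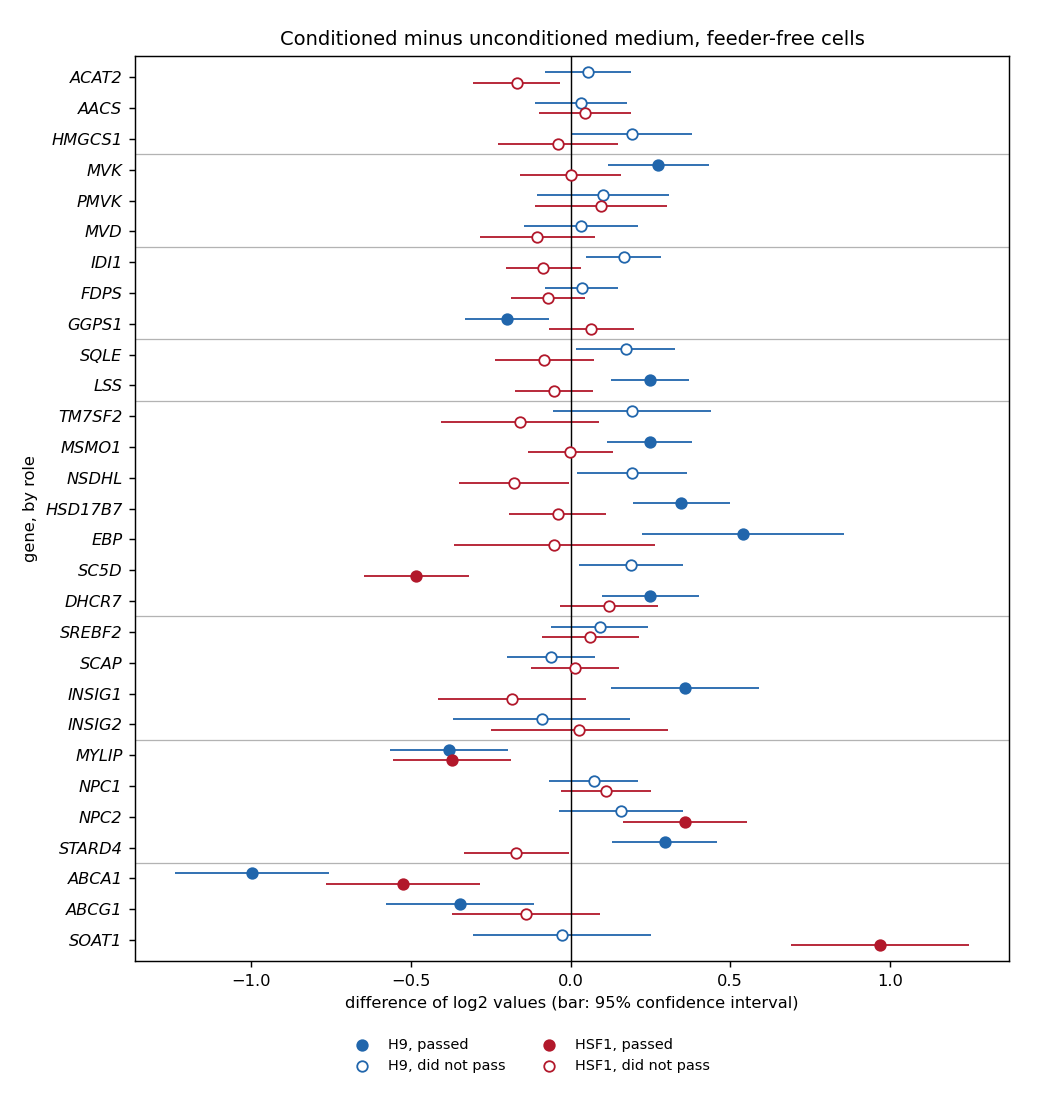
Difference between conditioned and unconditioned medium (x axis, log2 units) for the 29 genes (y axis, by role), in H9 cells in blue and HSF1 cells in red. Bars are 95% confidence intervals, filled points passed an adjusted p of 0.05 and open points did not. ABCA1 lies left of 0 in both lines, SOAT1 stands at 0.97 in HSF1 and -0.03 in H9, and the H9 points of the synthesis enzymes lie mostly right of 0.

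ABCA1 moved most in H9. Its values were 7.04, 7.14 and 7.09 in conditioned and 7.79, 8.31 and 8.16 in unconditioned medium. In HSF1 they were 8.30, 8.53 and 8.64 in conditioned and 9.06, 9.01 and 8.98 in unconditioned medium. Neither line showed overlap between the media. The difference was -0.998 (SE 0.11, adjusted p = 2.27e-05) in H9 and -0.53 (SE 0.11, adjusted p = 0.00395) in HSF1, and the difference between the lines, -0.47, did not pass (adjusted p = 0.0829). A second ABCA1 probe set gave -1.32 and -0.85, both passing.

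The ABCG1 set that was low on feeders was also lower in conditioned medium. It stood at 4.37, 4.89 and 4.89 in conditioned and 6.07, 6.91 and 6.99 in unconditioned H9 cultures, and at 4.94, 5.66 and 5.25 in conditioned and 6.64, 6.79 and 6.75 in unconditioned HSF1 cultures. The media did not overlap in either line. The conditioned H9 values are all under the filter of 5, so the set met it there through other arrays and the H9 difference is a description, as for another ABCG1 set at a mean of 5.21. In HSF1 the difference was -1.44 (SE 0.23, adjusted p = 0.000684), with conditioned values still under the array medians, so no exact fold is given. The listed set was lower by 0.35 in H9 (adjusted p = 0.0415) and stood at -0.14 in HSF1. Its H9 values, 5.33 to 5.60 in conditioned and 5.66 to 5.89 in unconditioned medium, also lay under the array medians. Its H9 call was lost under 13 of 23 alternatives.

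MYLIP was at 9.37, 9.46 and 9.41 in conditioned and 9.62, 9.82 and 9.94 in unconditioned H9 cultures, and at 9.63, 9.83 and 9.55 in conditioned and 10.02, 10.02 and 10.09 in unconditioned HSF1 cultures. Both lines were lower without overlap, by 0.38 and 0.37 (adjusted p = 0.00796 and 0.00689). Of its other 5 probe sets 0 passed in either line, and 4 in H9 and 1 in HSF1 stood above 0, so the call rests on 1 of 6 sets. Without the 2 sets that had every conditioned value at or under the filter, 12 of 60 member probe sets passed as higher and 3 as lower in H9, beside 3.15% and 9.12% of all sets, and 2 and 7 of 62 in HSF1, beside 5.7% and 7.83%. Of 13 listed genes of LXR, oxysterols and efflux that are no members, 2 were lower in H9 and 1 in HSF1. These counts were near the shares of all genes lower, 13% and 9.78%, and 0 were higher. SMPDL3A, an LXR-responsive gene of that list, fell by 0.38 in H9 and 0.48 in HSF1.

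INSIG1 was at 11.29, 11.19 and 10.84 in conditioned and 10.58, 10.96 and 10.71 in unconditioned H9 cultures, with overlap, and at 9.64, 9.67 and 9.77 in conditioned and 9.995, 9.81 and 9.83 in unconditioned HSF1 cultures. It was higher in H9 by 0.36 (SE 0.11, adjusted p = 0.0359) and stood at -0.18 in HSF1 without passing. The effects differed between the lines by 0.54 (SE 0.15, adjusted p = 0.043). STARD4 was higher in H9 by 0.29 (adjusted p = 0.0173), with 11.01, 10.96 and 10.83 in conditioned and 10.51, 10.76 and 10.64 in unconditioned medium, which did not overlap.

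Of the enzymes in H9, HSD17B7 rose by 0.35 (adjusted p = 0.00395), MVK by 0.28 (adjusted p = 0.0204), LSS by 0.25 (adjusted p = 0.00795), MSMO1 by 0.25 (adjusted p = 0.0144) and DHCR7 by 0.25 (adjusted p = 0.027). The media did not overlap for these 5. The other 2 LSS probe sets stood at -0.02 and -0.09 without passing. EBP was at 10.54, 10.84 and 10.99 in conditioned and 10.69, 9.94 and 10.12 in unconditioned medium, so its rise of 0.54 (adjusted p = 0.0219) came with overlap. Of its other 3 probe sets 0 passed, at -0.08, 0.12 and 0.15. GGPS1 was the 1 enzyme that fell in H9, by 0.20 (adjusted p = 0.0405), and this call was lost under 16 of 24 alternatives. SQLE did not pass by its listed set, with means of 11.85 in conditioned and 11.67 in unconditioned H9 cultures. Its further sets differed, with means of 10.73 and 9.67, 7.87 and 7.41, and 8.25 and 8.28. The enzyme differences above are therefore those of the listed sets alone.

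In HSF1, SOAT1 (chr1:179293797-179358680, GRCh38.p14) was at 7.72, 7.76 and 8.24 in conditioned and 6.78, 6.94 and 7.09 in unconditioned medium. The rise of 0.97 (SE 0.13, adjusted p = 7e-05) came without overlap, while in H9 the values were 6.78, 6.92 and 7.14 in conditioned and 6.86, 6.98 and 7.10 in unconditioned medium. The other tested SOAT1 set, at a mean of 5.49, did not pass in either line. SC5D was at 10.93, 10.73 and 10.61 in conditioned and 11.24, 11.27 and 11.20 in unconditioned HSF1 cultures, a fall of 0.48 (SE 0.08, adjusted p = 0.000349), and stood at 0.19 in H9 (adjusted p = 0.104). Its second probe set, at a mean of 5.53, stood at 0.35 in HSF1 (adjusted p = 0.072), the opposite direction. NPC2 was at 12.46, 12.47 and 12.54 in conditioned and 12.11, 12.14 and 12.15 in unconditioned HSF1 cultures, a rise of 0.36 (adjusted p = 0.012).

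**Figure D5:**
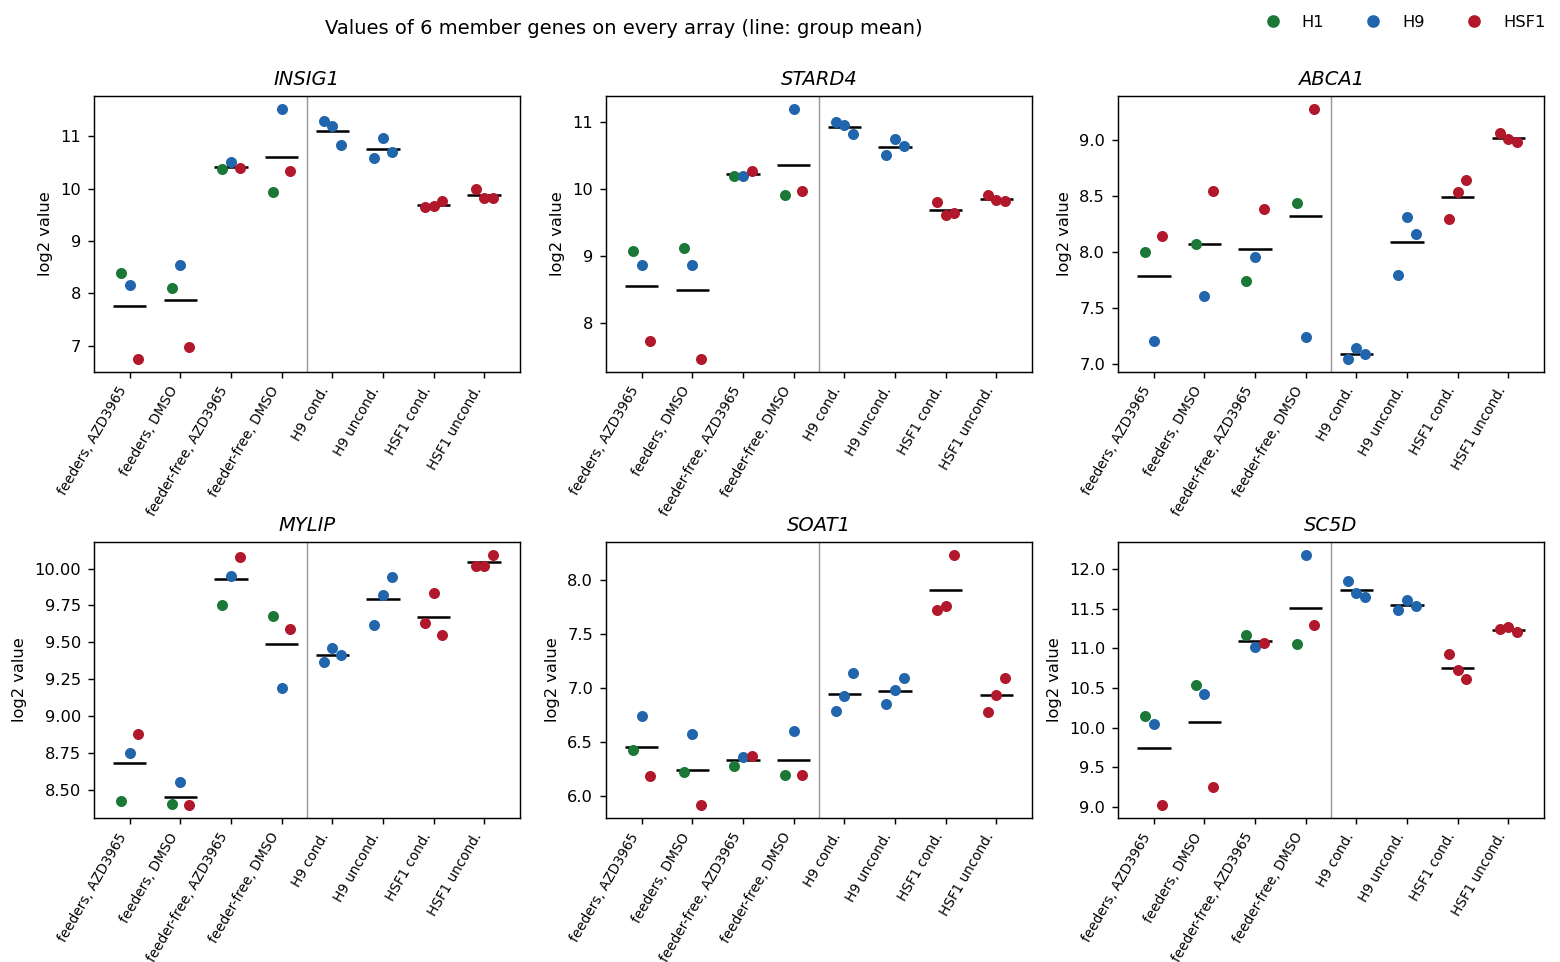
Log2 values (y axis) of 6 member genes on each of the 24 arrays, by group (x axis), with the cell line as colour and the group mean as a black line. INSIG1 and STARD4 lie lower in the feeder-supported groups at the left, ABCA1 lies lower in conditioned medium in both lines, and SOAT1 is highest in HSF1 cells in conditioned medium.

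The effects of conditioned medium differed between the lines for 6 genes by an interaction term. LSS, HSD17B7, SC5D, INSIG1 and STARD4 were higher in H9 relative to HSF1, where 2.08% of all genes were, and SOAT1 was lower, where 5.65% were. For LSS (-0.18 and -0.29) and SC5D (-0.14) the other probe sets had the opposite sign and did not pass. The ACTB difference was 1.42 to 1.84 in conditioned and 1.07, 3.25 and 2.89 in unconditioned H9 cultures, and 1.67 to 1.84 in conditioned and 1.52 to 1.63 in unconditioned HSF1 cultures. Without the unconditioned H9 replicates 2 and 3, an alternative chosen after seeing the data, 4 genes passed in H9, which were MSMO1 (0.34), INSIG1 (0.53) and STARD4 (0.42) as higher and ABCA1 (-0.70) as lower. The 1 array left in that group was assumed to vary like the other groups. Leaving out conditioned H9 replicate 1 gave 6, conditioned replicate 2 gave 4 and unconditioned replicate 3 gave 5, and a block of replicate numbers within a line gave 6. Fibroblast markers summed to 16738 to 17872 in conditioned and 16455 to 17268 in unconditioned H9 cultures and to 13977 to 15389 in conditioned and 15688 to 16317 in unconditioned HSF1 cultures. The part of RNA quality in the H9 calls was not tested beyond these fits.

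Lists of related genes were mixed in this comparison. VLDLR, a lipoprotein receptor, was higher in both lines, by 0.44 in H9 and 0.66 in HSF1 (adjusted p = 0.00237 and 4.67e-05). ERG28 stood at 0.30 and -0.28 and TMEM97 at 0.18 and -0.24, each passing in opposite directions, and the interaction passed for both (0.58 and 0.42, adjusted p = 0.00549 and 0.00434). LIPA fell in HSF1 by 0.40 (adjusted p = 0.0009). RNF145 fell in H9 by 0.36 (adjusted p = 0.000906).

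H9 and HSF1 also differed in level. In conditioned medium 18 of 29 genes were higher on every H9 array than on every HSF1 array and 5 were lower, where 17% and 28.3% of all genes were. In unconditioned medium 17 were higher and 3 lower, where 19.3% and 17.4% were. The H9 mean minus the HSF1 mean had a median of 0.46 over the 29 genes in conditioned and 0.30 in unconditioned medium, beside -0.03 and 0.00 over all genes. In unconditioned medium INSIG1 (0.87), IDI1 (0.85), HMGCS1 (0.79), SQLE (0.79), STARD4 (0.78) and MSMO1 (0.76) differed most upward, and ABCA1 (-0.93), NPC2 (-0.44) and MYLIP (-0.25) were the 3 lower genes. These are levels of 1 culture series of each line, and no test of the lines was made.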

How the data were processed

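Total RNA of 24 samples was hybridised to Affymetrix U133 Plus 2.0 arrays. The deposited values are log2 RMA values of 54675 probe sets, per the submitters' processing notes. The software version was not found in the labels, nor was a statement that the 24 arrays were handled in 1 run. With arrays there is no read depth, and precision follows from the number of arrays. Groups came from sample titles.

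Probe sets naming 1 gene in the platform annotation were kept, and a gene was represented by its set of highest mean over the 24 arrays (19775 genes). Testing needed a log2 value above 5 on 3 or more of a part's 12 arrays, which kept 17218 genes for the inhibitor part, 16572 for the medium part and all 29 members in both. The test was limma 3.58.1 under R 4.3.3, using lmFit and eBayes with an intensity trend. The spread was estimated once for each part, with Benjamini-Hochberg adjustment over all genes, or over all probe sets where those are given. In the inhibitor part the number of a replicate is the cell line, so samples are paired and line was a blocking term. In the medium part same-numbered arrays did not deviate together (r = -0.27 to 0.13 over 6 pairs), so no block entered. P-values there reflect the spread between replicates within a group, pooled over H9 and HSF1. In the inhibitor part they reflect the spread left after group and line, pooled over the 12 arrays. That spread mixes differences between lines in the feeder response with differences within the AZD3965 and DMSO pairs of a line. The AZD3965 and DMSO arrays of a line in the same culture system entered as independent. These p-values are therefore no direct measure of how alike 3 lines respond to feeders or to AZD3965. Alternatives covered pairing, normalization, filters, the variance model, array weights and fits without single arrays. All members were to be named, with full statistics for those past the threshold and ranges or counts for others, plus up to 4 genes of each related list by smallest p. Members, lists and tests were chosen with earlier results of these data known. On simulated data the fit of feeder-supported over feeder-free culture with DMSO recovered 42% of changes of 1 log2 unit and 96% of 2 units among 16999 genes. That of conditioned over unconditioned medium in H9 recovered 72% of changes of 0.5 and 100% of 1 among 16481 genes. There were 8 false calls in the first fit and 13 in the second. The simulated arrays had independent noise, no differences between lines or culture systems, and only 50 changed genes of each size. Far more genes passed in the real feeder comparison, so these rates do not give the recovery in the real data.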

Additional observations from a re-analysis of the deposited data

Results flagged for a closer look

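The effect of conditioned over unconditioned medium differed between H9 and HSF1 cells for 6 member genes by the interaction term of the limma fit, in which a positive value means a higher effect in H9. It was 0.67 for SC5D, 0.54 for INSIG1, 0.46 for STARD4, 0.39 for HSD17B7, 0.30 for LSS and -0.998 for SOAT1, with adjusted p = 0.00215, 0.043, 0.0187, 0.0304, 0.0333 and 0.00527 in that order. SOAT1 and SC5D passed under 21 of 23 alternatives each and STARD4 under 20, against 12 for HSD17B7, 10 for INSIG1 and 6 for LSS. SC5D fell in HSF1 by 0.48 and SOAT1 rose there by 0.97, while neither passed in H9. The second SC5D probe set had the opposite sign in HSF1 (0.35) and in the interaction (-0.14), and the other 2 LSS sets were at -0.18 and -0.29 in the interaction, with 0 of these 3 passing. The unconditioned H9 replicates 2 and 3 had ACTB 3-prime minus 5-prime differences of 3.25 and 2.89, against 1.07 in replicate 1, and the part of RNA quality was not tested.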

How the results depend on the processing

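The count of member genes called was 19 for feeder-supported over feeder-free culture with DMSO and 18 with AZD3965. It was 3 and 2 with the ACTB 3-prime minus 5-prime difference as a covariate, and leaving out 1 line gave 2 to 19 and 7 to 16. For AZD3965 over DMSO 0 genes passed in each fit, against 5 for the mean effect and 1 on feeders with array weights (whose estimation stopped early in 1 part), and 3 for the mean effect and 1 without feeders with a replicate block of line within culture system. Without the line as a block 17 and 14 genes passed for feeders with DMSO and with AZD3965. For conditioned over unconditioned medium in H9 the count of 12 became 1 with all 24 arrays in 1 fit, 6 with a replicate block, 4 without the 2 unconditioned arrays of high ACTB difference and 3 with each line fitted alone, the last 2 chosen after seeing the data, and 4 to 12 when 1 array was left out. In HSF1 the count of 5 became 1 with all 24 arrays, 8 with array weights and 8 with each line alone, and 4 to 6 without 1 array. For the difference between the lines the count of 6 became 0 with all 24 arrays, 15 with array weights and 3 with the replicate block, and 2 to 12 without 1 array. It was 12 without unconditioned H9 replicate 1, 2 without unconditioned HSF1 replicate 1, and 3 without unconditioned HSF1 replicate 2 or 3, conditioned H9 replicate 2 or conditioned HSF1 replicate 2. The difference between the lines for LSS turned to -0.055 with the mean of all its probe sets. ABCA1 in H9, SOAT1 in HSF1 and INSIG1 on feeders passed under every alternative run for them. For the alternative fits, here and above, the share of all genes passing is not given beside these counts. A change particular to the members therefore cannot be told from a change in all genes. The cause of these changes was not tested.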
